A study of Mus musculus with 12 samples.

Results

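Chemokine receptors that guide the migration of dendritic cells (DCs) were followed in sorted mouse splenic DCs with and without in vivo activation, in animals with and without the alymphoplasia (aly) mutation. The receptor genes Ccr7, Ccr1, Ccr2, Ccr6, Ccrl2, Cxcr3, Cxcr4, Cxcr5 and Cx3cr1 were taken through every probe set annotated to exactly 1 of these symbols, which gave 14 of the 45101 probe sets of the array. A probe set was kept if it lay above the 40th percentile of its array on at least 3 arrays, and 12 of the 14 passed. All 9 genes were measured by at least 1 of these probe sets, among 15019 genes tested in all.

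The study compared 4 groups of 3 arrays. The WT groups were heterozygous littermates of the aly animals, so the controls carried the mutant allele too, in heterozygous form. The untreated groups of each genotype received nothing, and the treated groups received 25 µg LPS together with 100 µg agonistic anti-CD40 antibody intraperitoneally, with DCs taken 6 hours later. One array stands for a pool of 3 mice, whose spleen DCs were enriched with CD11c beads before flow sorting, and the whole experiment was done in triplicate. Strain, age and sex were not given in the sources used here. A p-value therefore measures the spread between pools of mice, and the mutation was present in all cells of the animal and not in the DCs alone.

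Chemokine receptors are G protein-coupled receptors that turn a chemokine gradient into directed movement. DCs are known to lower receptors for inflammatory chemokines when they mature and to raise CCR7, which reads CCL19 and CCL21 and leads them into the T cell zone. The aly mutation lies in Map3k14, which encodes NIK, the kinase that starts the non-canonical NF-κB pathway downstream of CD40 and the lymphotoxin β receptor. LPS signals through TLR4 and reaches mainly the canonical NF-κB pathway.

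Because both stimuli act through NF-κB, the promoters of the receptor genes were searched for the NF-κB consensus, by its name alone and on both strands, in windows from 250 bases before to 50 bases after each RefSeq start site (GRCm38.p6). The table held no window for Ccr7 or Cxcr5, so these were not searched, and 10 windows for the other 7 of the 9 genes. A match stood in 3 of these windows, in Ccr1, Ccr6 and Ccrl2, while 8.46% of all 32851 promoter windows of the table held one. Ccrl2 is shown with its 250 upstream bases (chr9:111057519-111057768, minus strand) because its intensity differed most between the treated genotypes among the 9 receptors. Ccr6 (chr17:8242276-8242575, plus strand) and Ccr1 (chr9:123968643-123968942, minus strand) are shown by the stretch around the match, because they were not called in any comparison. All are written 5′ to 3′, and capitals mark the bases that match.
Ccrl2 upstream: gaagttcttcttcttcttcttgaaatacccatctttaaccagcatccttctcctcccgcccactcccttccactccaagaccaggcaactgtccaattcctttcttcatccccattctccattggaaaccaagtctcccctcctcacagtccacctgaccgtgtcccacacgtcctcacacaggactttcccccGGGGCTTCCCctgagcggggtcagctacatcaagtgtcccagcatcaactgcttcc
Ccr6 stretch: agcttggcttGGGGAATTCCCagataaaaa
Ccr1 stretch: ctttagaaggGGGAGGCTCCtcactgacca
The Ccrl2 match lay at positions -56 to -47 from the start site, that of Ccr6 at -81 to -71, where 2 matches overlap, and that of Ccr1 at -74 to -65. A match describes the letters in the window and is not a measured binding site. Ccrl2 and Ccr6 also had windows at other start sites, and those held no match.

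Every array had been brought to a trimmed mean intensity near 150.001, which does not make the arrays alike in other respects. They differed in RNA quality. The log2 ratio of 3′ to 5′ probe sets of control genes averaged 1.57 ± 0.18 in WT (SD, n = 6) and 3.07 ± 1.31 in aly (SD, n = 6), a difference with a two-sided exact permutation p of 0.0022. Treated aly replicate 1 stood apart, with an Actb 3′ to 5′ ratio of 55.8 against 1.39 to 5.92 on the other arrays, and without it the aly mean was 2.56. Spike-in controls were lower on the 4 replicate 1 arrays (3.25 to 23.7) than on the others (54.9 to 533). The summed intensity of 7 pan-DC genes was 42239 to 48614 in untreated WT and 28865 to 36494 in treated WT. In aly cells it was 51302 to 55223 untreated and 39407 to 95853 treated. The highest sum came from treated aly replicate 1, where H2-Aa, H2-Ab1 and Cd74 read 48745, 19886.7 and 26472.3. On that array Itgax (229.7), Flt3 (267.4) and Zbtb46 (44) were at their lowest of all arrays, while Ciita, at 208, was not. The share of DCs in the cells of that array was not tested.

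Differences are given on the scale of log2(intensity + 16), which understates the change of dim probe sets, with the standard error of the limma fit over all 12 arrays. A gene is called when its Benjamini-Hochberg adjusted p over all 15019 genes is below 0.05.

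Treatment of WT mice changed 5 of the 9 receptors. Ccr7, Cxcr5 and Ccrl2 rose and Cxcr3 and Ccr2 fell, while Ccr6, Cx3cr1, Cxcr4 and Ccr1 were not called. Among all genes tested, 9.71% were called in this comparison, 4.95% higher and 4.75% lower. The median difference of the 9 receptors was -0.45 and that of all genes -0.12. In aly mice the same treatment raised 1 of the 9, Ccr7, and lowered none, where 0.486% of all genes were called, 0.453% higher and 0.0333% lower. The medians were -0.34 over the receptors and -0.08 over all genes. At an unadjusted p below 0.05, 7 receptors and 23.1% of all genes differed in WT, and 5 receptors and 12.9% in aly. By the arrays alone, every treated WT array was above every untreated one for 3 receptors and below for 4, against 14.3% and 22.1% of all genes. In aly cells it was above for 3 and below for 2, against 6.02% and 8.56% of all genes.

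**Figure D1:**
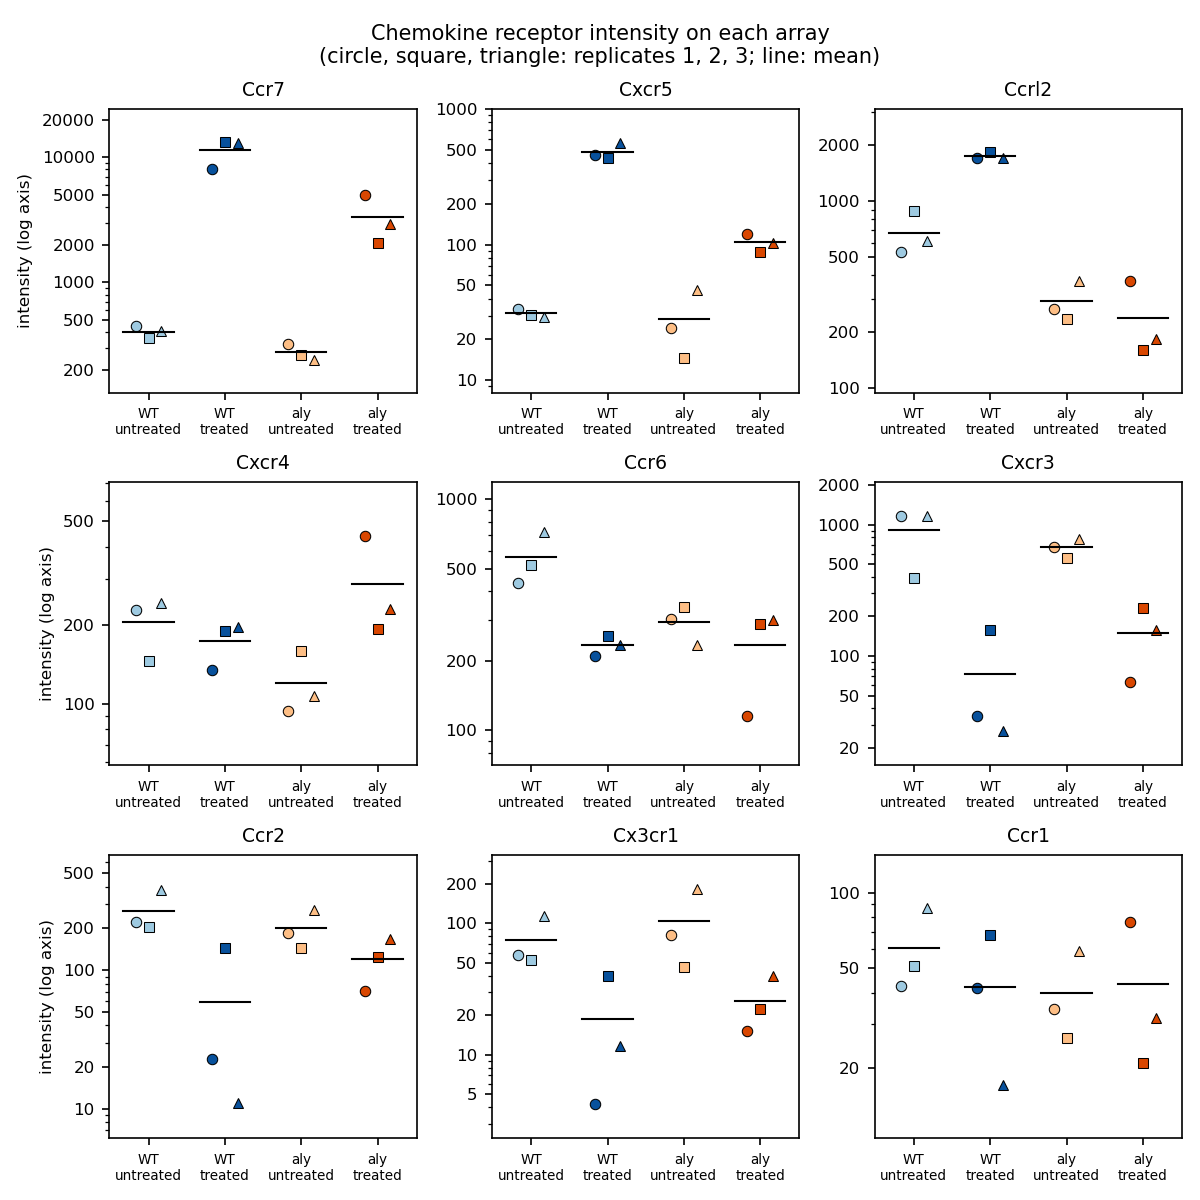
Intensity of the probe set used for each of the 9 receptors (log axis) on the 12 arrays in 4 groups; each point is an array, its shape the replicate number, and the bar the group mean of 3. Ccr7, Cxcr5 and Ccrl2 are highest in treated WT cells, whereas Cxcr3, Ccr2, Ccr6 and Cx3cr1 are lower on every treated WT array than on any untreated one.

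Ccr7, the receptor for CCL19 and CCL21, had the largest response of the 9 in either genotype (probe set 1423466_at). In WT cells its intensity was 446.8, 361.9 and 405.9 on the untreated arrays and 8069.7, 13305.2 and 12924.7 on the treated arrays. All treated arrays were far above all untreated ones, and the rise was 4.74 ± 0.38 on the log2 scale (SE, 26.6-fold, limma adjusted p = 2.0e-06). In aly cells it was 323.6, 260.9 and 241.6 untreated and 5010.5, 2051.9 and 2941.2 treated, again without overlap. That rise was 3.44 ± 0.38 (10.8-fold, limma adjusted p = 5.7e-04). Both rises remained called under all 23 alternative settings, with values from 4.58 to 5.04 in WT and from 2.96 to 3.74 in aly. Without treated aly replicate 1 the aly rise was 3.10.

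Cxcr5, the receptor for the B cell follicle chemokine CXCL13 (1422003_at), rose in WT cells from 33.8, 30.2 and 29.4 to 459.6, 433.5 and 558.8. The treated arrays all lay above the untreated ones, and the difference was 3.40 ± 0.35 (10.6-fold, limma adjusted p = 1.5e-05). In aly cells the untreated arrays read 24.1, 14.6 and 46.6 and the treated arrays 120, 88.8 and 102.5. These groups did not overlap either, but the difference of 1.49 ± 0.35 was not called (2.80-fold, limma adjusted p = 0.082). It was called after quantile normalization (adjusted p = 0.027) and with array weights (adjusted p = 0.01). Without treated aly replicate 1 it was 1.39 (adjusted p = 0.13).

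CXCR5 is best known from B cells, so B cell markers were read on the same arrays. Of 6 tested, none was higher in treated than in untreated WT cells and 1, Cd79b, was lower. Their summed intensity was 601 to 1504 in untreated WT and 303 to 764 in treated WT, against 645 to 988 and 425 to 785 in aly. The part of B cells in the Cxcr5 values was not tested.

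Ccrl2, an atypical receptor that binds chemerin and does not signal through G proteins (1427736_a_at), was called in WT cells and not in aly cells. In WT cells it read 531.9, 884 and 610.9 untreated and 1705.2, 1839.2 and 1700.7 treated. The treated arrays were closely spaced and all higher, by 1.38 ± 0.38 (2.61-fold, limma adjusted p = 0.03). In aly cells it read 265.2, 233.8 and 372 untreated and 371.7, 160.3 and 181.9 treated. These groups overlapped, with a difference of -0.34 ± 0.38 (adjusted p = 0.72), which was -0.69 without treated aly replicate 1 (adjusted p = 0.65). The WT call was lost when untreated replicate 1 or 3 or any treated WT array was left out (adjusted p up to 0.13), with an offset of 1 (0.071), after quantile normalization (0.063) and over replicates 2 and 3 alone (0.078).

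Cxcr3, the receptor for the interferon-induced chemokines CXCL9, CXCL10 and CXCL11 (1449925_at), had the largest fall of the 9 receptors in WT cells. Untreated WT arrays read 1171.3, 394.7 and 1154.3 and treated ones 35.1, 156.7 and 26.6. Every treated array was below every untreated one, and the gene fell by 3.52 ± 0.57 on the log2 scale (11.5-fold, limma adjusted p = 8.3e-04). Aly arrays read 678.3, 556.5 and 775.7 untreated and 63.2, 230.4 and 156.5 treated. The groups did not overlap here either, but the difference of -2.18 ± 0.57 was not called (4.54-fold, adjusted p = 0.13). Without treated aly replicate 1 it was -1.72 (adjusted p = 0.3).

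Ccr2, the receptor for CCL2 that brings monocytes out of the marrow, read 222.4, 203.9 and 380.6 in untreated WT cells and 23, 143.9 and 11 in treated ones. All treated arrays were lower, although replicate 2 stayed well above the other two, and the gene fell by 2.32 ± 0.55 on the log2 scale (4.98-fold, limma adjusted p = 0.014). In aly cells it read 186.1, 144.6 and 272.1 untreated and 70.8, 125.2 and 168.2 treated. These overlapped, with a difference of -0.68 ± 0.55 (adjusted p = 0.59), which was -0.39 without treated aly replicate 1 (adjusted p = 0.89). The WT call was lost without untreated replicate 3, treated replicate 1 or treated replicate 3 (adjusted p up to 0.099) and over replicates 2 and 3 alone (0.057).

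The Ccr2 call came from 1 of its 4 probe sets, 1421186_at. The other 3, all past the filter, gave WT differences of -1.21 ± 0.38, -1.11 ± 0.52 and -1.16 ± 0.44, all negative and none called when every filtered probe set was tested (limma adjusted p = 0.07, 0.26 and 0.14). In aly cells these 3 gave -0.77, -0.88 and -0.66, none called, against -0.68 for 1421186_at. The first of them, 1421187_at, passed the filter only through the untreated WT arrays, where it lay at percentiles 54.4 to 67.6. On all other arrays it lay at percentile 38.8 or below, so its negative WT difference is not separate evidence of a fall. The second probe sets of Ccr1 and Cx3cr1 lay below the filter, the Ccr1 one at 0.5 to 19.9 and the Cx3cr1 one at 0.8 to 16.2 over the 12 arrays. Neither was called when the filter was dropped.

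**Figure D2:**
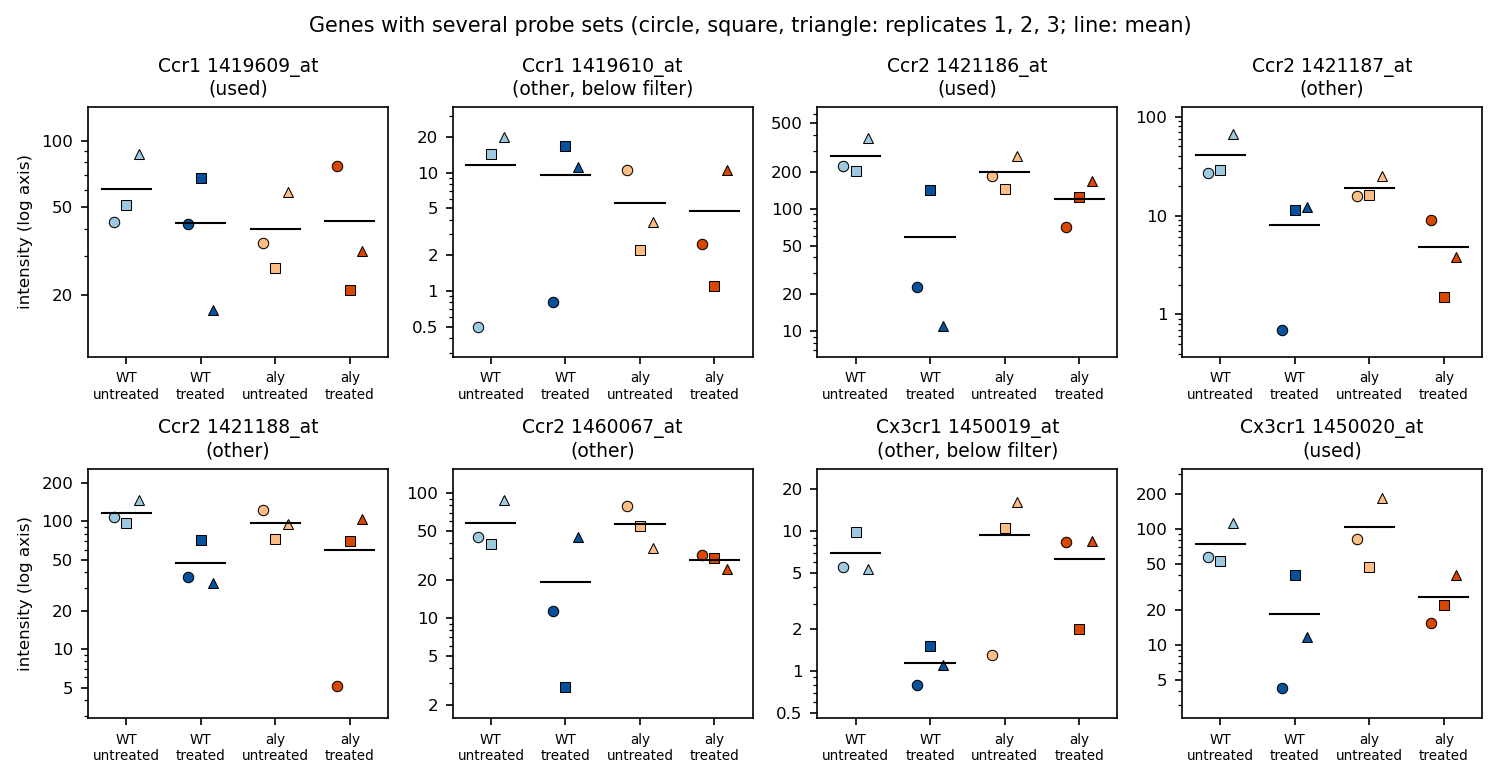
Intensity (log axis) of each probe set of the 3 receptors that have more than 1, on 12 arrays in 4 groups of 3, with the group mean as a bar and the replicate number as the shape. The 4 Ccr2 probe sets all have a lower mean in treated than in untreated WT cells, but only 1421186_at was called. Probe set 1421187_at passed the filter through the untreated WT arrays alone, and 1419610_at and 1450019_at lie below the filter.

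Ccr6 (1450357_a_at), the receptor for CCL20, and Cx3cr1 (1450020_at), the receptor for fractalkine, are carried by subsets of splenic DCs. Ccr6 read 435.7, 520.9 and 724.6 in untreated WT cells and 209.7, 257.1 and 234.3 in treated ones, with no overlap and a difference of -1.18 ± 0.39 (adjusted p = 0.069). Cx3cr1 read 57.6, 52.6 and 113 untreated and 4.2, 40.1 and 11.6 treated, again without overlap, at -1.46 ± 0.48 (adjusted p = 0.07). Neither passed the threshold in the fit over 12 arrays, and both calls depend on the model. With replicate 1 of each group set against replicates 2 and 3 as a block, the split that the spike-in controls showed, both were called (adjusted p = 0.046 for Ccr6 and 0.048 for Cx3cr1). Both were also called when only the WT groups were fitted (0.018 and 0.026), with array weights (0.0063 and 0.0088) and without treated aly replicate 1 (0.011 and 0.031). An offset of 64 brought Ccr6 past the threshold (0.03), and leaving out treated WT replicate 2 brought Cx3cr1 past it (0.03), as did the replicate number as a block.

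In aly cells Ccr6 read 302.6, 340.7 and 235 untreated and 115.8, 287.8 and 300.6 treated, with overlapping groups and a difference of -0.39 ± 0.39 (adjusted p = 0.68), which was 0.02 without treated aly replicate 1 (adjusted p = 0.99). Cx3cr1 read 81.8, 46.9 and 184.3 untreated and 15.3, 22.3 and 39.9 treated. The treated aly arrays were all lower for Cx3cr1, at -1.40 ± 0.48 (adjusted p = 0.3), and at -1.21 without treated aly replicate 1 (adjusted p = 0.53). The Cx3cr1 values of the 2 genotypes lay close together, and the difference between the 2 responses was 0.06 (95% interval -1.39 to 1.51), which leaves room for a large difference either way.

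Cxcr4 (1448710_at), the receptor for CXCL12, and Ccr1 (1419609_at), a receptor for CCL3, CCL5 and related chemokines, were not called in any comparison. Cxcr4 read 229.3, 145.8 and 243.8 in untreated WT, 135.3, 190 and 196.6 in treated WT, 94.4, 159.2 and 107.4 in untreated aly and 437.8, 194.3 and 231.4 in treated aly. Only the aly groups were apart, with treated arrays higher by 1.10 ± 0.39 (adjusted p = 0.3). The highest value came from treated aly replicate 1, and without it the difference was 0.77 (adjusted p = 0.6). On that array the neutrophil markers S100a8 and S100a9 were also at their highest, at 4160.5 and 7325.3, and their part in the result was not tested. Ccr1 read 42.7, 51 and 87.3 in untreated WT, 41.8, 67.9 and 17.1 in treated WT, 34.4, 26.4 and 58.8 in untreated aly and 76.8, 21 and 31.7 in treated aly, and all 4 groups overlapped.

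**Figure D3:**
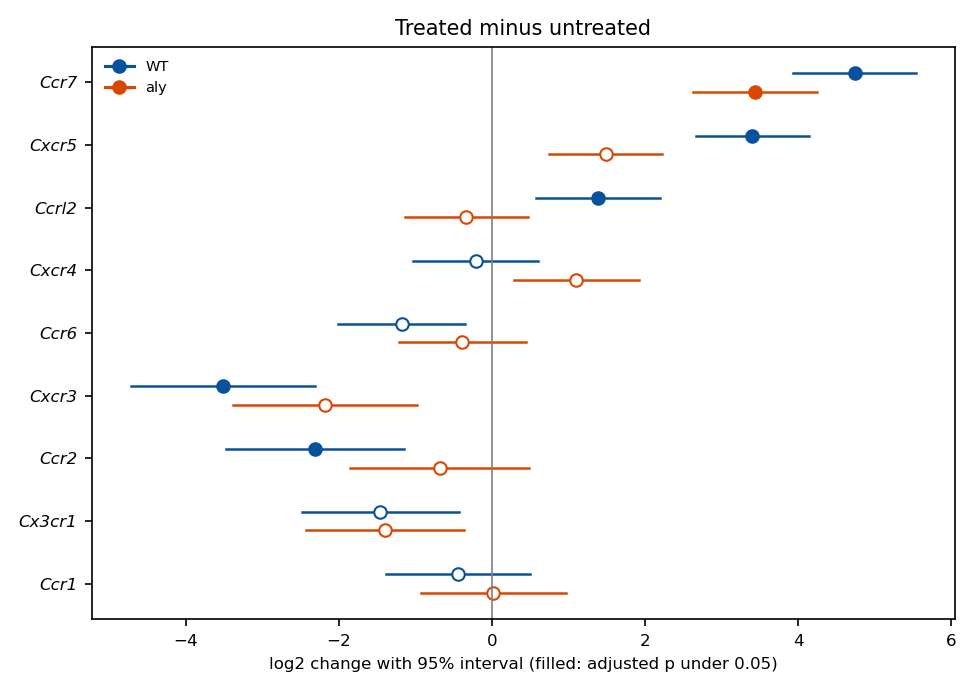
Treated minus untreated difference of each receptor on the log2(intensity + 16) scale, with its 95% interval, in WT (blue) and aly (orange) cells, 3 arrays per group; filled points have an adjusted p below 0.05. Ccr7 is filled in both genotypes, and Cxcr5, Ccrl2, Cxcr3 and Ccr2 are filled in WT alone, which by itself does not show that the genotypes differ.

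Other cell types and DC subsets were followed on the same arrays, since a change of a receptor in bulk sorted cells can come from fewer cells of a type or from less RNA per cell, and these cannot be told apart. Of 7 markers of CD8α+ DCs, 5 were called lower in WT cells, as Cxcr3 and Ccr2 were, and none was called higher. The 5 include Xcr1, itself a chemokine receptor. Batf3, not called, went the other way, at 1033.8 to 1526.1 on the untreated and 1607.4 to 2511.2 on the treated arrays. The summed intensity of the 7 was 8837 to 16670 untreated and 4124 to 7172 treated. In aly cells the sum was 15090 to 16405 untreated and 5555 to 9141 treated, with none of the 7 called. The markers of monocytes, which carry CCR2 and CX3CR1, were not called in WT (0 of 5), with sums of 11108 to 16667 untreated and 9132 to 11623 treated. Of 5 natural killer cell markers, which belong to cells that carry CXCR3, 1 rose in WT (Gzma), with sums of 2217 to 3187 untreated and 1130 to 3132 treated. Klrd1 had the highest mean of the 5, 2486 untreated and 1282 treated. Gzma, Eomes, Prf1 and Ncr1 had higher means in treated cells, and the median difference of the 5 was 0.64. The 2 T cell markers tested, Cd28 and Cd3g, summed to 3.10 to 25.9 in WT and 17.7 to 89.5 in aly, and Cd3e, Cd3d, Lck and Trac gave no tested probe set. Among 8 red pulp macrophage markers, 1 rose in WT (Spic). The part of these cell types in the receptor changes was not tested.

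Comparing the genotypes without treatment, none of the 9 receptors was called by limma, while 0.553% of all genes were, 0.499% higher in aly and 0.0533% lower. At an unadjusted p below 0.05, 2 receptors (Ccrl2 and Ccr6) and 10.5% of all genes differed. The receptor median was -0.45 and that of all genes 0.10. Every untreated aly array was below every untreated WT array for 3 receptors and above for none, against 9.86% and 12.9% of all genes. The differences were -0.54 ± 0.38 for Ccr7 (adjusted p = 0.67), -1.17 ± 0.38 for Ccrl2 (adjusted p = 0.24) and -0.88 ± 0.39 for Ccr6 (adjusted p = 0.44). With array weights the Ccrl2 difference was called (adjusted p = 0.024). The remaining 6 receptors overlapped between the untreated genotypes, with differences from -0.70 (Cxcr4) to 0.31 (Cx3cr1).

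After treatment, 3 of the 9 receptors were lower in aly than in WT cells and none was higher, where 5.37% of all genes were called, 2.74% higher and 2.64% lower. They were Ccr7, Cxcr5 and Ccrl2, the 3 that had risen in WT cells, in a comparison that shares the treated WT arrays with this one. The median was 0.01 over the receptors and 0.19 over all genes.

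Ccrl2 differed most. Its treated WT arrays, between 1700.7 and 1839.2, lay far above the treated aly arrays, between 160.3 and 371.7. The gap was -2.89 ± 0.38 (7.40-fold, limma adjusted p = 0.0012) and was called under all 23 alternatives. Its 4 group levels ran from treated aly and untreated aly, which overlapped, to untreated WT and then treated WT, and each of the last 2 stood clear of the group below it.

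Cxcr5 was lower in treated aly cells by 2.06 on the log2 scale, with 88.8 to 120 against 433.5 to 558.8 in treated WT (4.17-fold, SE 0.35, limma adjusted p = 0.005). The untreated groups of both genotypes overlapped, treated aly stood above them and treated WT above all. The call held in 22 of 23 alternatives and was lost when only the treated groups were fitted (adjusted p = 0.072). For Ccr7 the 4 groups ran from untreated aly through untreated WT and treated aly to treated WT, and no neighbours overlapped. Its treated aly arrays, 2051.9 to 5010.5, lay below the treated WT arrays, 8069.7 to 13305.2, at -1.83 ± 0.38 (3.57-fold, limma adjusted p = 0.014).

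The Ccr7 call in this comparison was the least firm of the 3. It was lost without treated WT replicate 3 (adjusted p = 0.1), without treated aly replicate 2 (0.058), with an offset of 1 (0.052) and when only the treated groups were fitted (0.11). On the replicate 1 arrays alone, the Ccr7 difference between the treated genotypes was -0.69, and that of Ccrl2 was -2.15 and of Cxcr5 -1.81. Over replicates 2 and 3 alone all 3 remained called. Without treated aly replicate 1, the array that stood apart, the differences were -2.18 for Ccr7, -3.24 for Ccrl2 and -2.16 for Cxcr5, all called.

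The other 6 receptors overlapped between the treated genotypes. Arrays without overlap, lower in aly for 3 receptors and higher for none, were found for 10.1% of all genes lower and 14.1% higher. Ccr2 and Cxcr3 had fallen in WT and their point estimates were higher in aly, by 1.25 ± 0.55 (adjusted p = 0.19) and 1.05 ± 0.57 (adjusted p = 0.28). The Ccr2 values here are those of 1421186_at, and its other probe sets gave -0.19, -0.01 and 0.52, none called. Leaving out treated WT replicate 2 brought Ccr2 past the threshold, at 2.02 (adjusted p = 0.031). With array weights Ccr2 (adjusted p = 0.025) and Cxcr3 (adjusted p = 0.013) were both called higher. The differences of Cxcr4, Cx3cr1, Ccr1 and Ccr6 lay between -0.09 and 0.61. Without treated aly replicate 1 the difference was 1.55 for Ccr2 and 1.51 for Cxcr3 (adjusted p = 0.11 for each), 0.28 for Cxcr4, 0.55 for Cx3cr1, -0.37 for Ccr1 and 0.32 for Ccr6, and none was called.

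**Figure D4:**
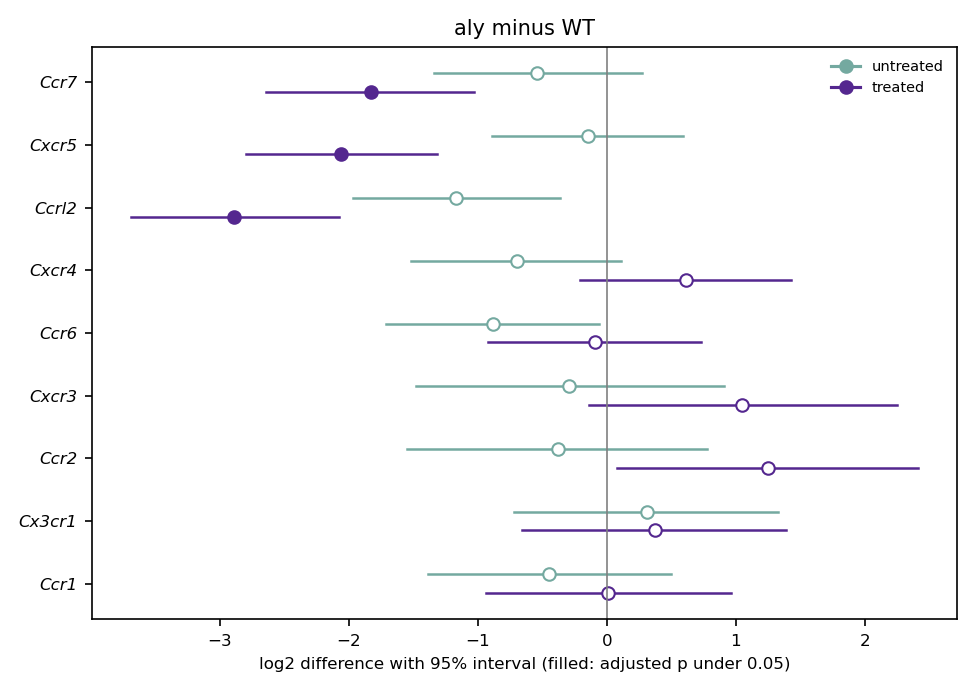
Difference between genotypes (aly minus WT) of each receptor on the log2(intensity + 16) scale, with its 95% interval, without treatment (green) and after treatment (purple), 3 arrays per group; filled points have an adjusted p below 0.05. Ccrl2, Cxcr5 and Ccr7 are filled after treatment and lie below 0, and no receptor is filled without treatment.

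Whether the response itself differed between genotypes was tested by the interaction of genotype and treatment. No receptor was called, where 0.153% of all genes were, 0.153% with a negative interaction (treated minus untreated lower in aly than in WT) and 0% with a positive one. The sign is not the size of a response: Ccr2, at 1.63 ± 0.78 (adjusted p = 0.63), had the smaller fall in aly by probe set 1421186_at. The other Ccr2 probe sets gave interactions of 0.44, 0.23 and 0.51, none called. At an unadjusted p below 0.05, 4 receptors (Ccr7, Ccrl2, Cxcr4 and Cxcr5) and 8.02% of all genes differed. The median was 0.46 over the receptors and 0.04 over all genes.

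The interaction estimate was -1.91 ± 0.49 for Cxcr5 (adjusted p = 0.22), -1.72 ± 0.54 for Ccrl2 (adjusted p = 0.35) and -1.30 ± 0.54 for Ccr7 (adjusted p = 0.57). These 3 genes responded less in aly by their point estimates, but the difference did not pass over all genes. For Cxcr4 it was 1.31 ± 0.54 (adjusted p = 0.56). Without treated aly replicate 1, Ccrl2 passed (-2.07, adjusted p = 0.047), and Cxcr5 was at -2.01 (adjusted p = 0.06), Ccr7 at -1.64 (adjusted p = 0.12) and Cxcr4 at 0.98 (adjusted p = 0.37). In addition Cxcr5 passed with an offset of 64 (-1.65, adjusted p = 0.017). With array weights, which scale each array's influence by its residual spread, Ccr7 (adjusted p = 0.037), Ccrl2 (0.016) and Cxcr5 (0.02) all passed.

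Markers of cells other than DCs differed between the genotypes. Of 8 red pulp macrophage markers, 4 were higher in untreated aly and 3 in treated aly cells, and none was lower. Their summed intensity was 1777 to 10103 in untreated WT and 2275 to 13110 in treated WT, against 24658 to 35393 and 18680 to 51912 in aly. Of 5 monocyte markers 1 was higher in untreated aly (Fcgr1) and 1 in treated aly (Csf1r), with aly sums of 17462 to 25574 untreated and 17093 to 18586 treated. Of 3 erythroid markers tested, 1 was higher in aly cells both without and with treatment (Slc4a1, the red cell anion exchanger, by 4.69 ± 0.71 and 4.02 ± 0.71, limma adjusted p = 0.018 and 0.0058). The 3 summed to 12.1 to 166 in untreated WT and at most 333 in treated WT, against 685 to 1746 and 453 to 2837 in aly. Among DC markers, 2 of 6 of CD4+ or CD11b+ DCs were lower in treated aly (Irf4 and Esam), with sums of 2712 to 3809 in treated WT and 2565 to 3670 in treated aly, and 1 of 7 of CD8α+ DCs was higher (Cadm1). The median difference of the 6 was 0.43, with higher means of Sirpa (2433 against 1270) and Cd4 (174.3 against 66.10) in treated aly. The other Irf4 probe set gave -0.12. Within WT, the means of Irf4 (491.2 to 1236) and Esam (402.5 to 774.5) were higher after treatment. The part of these cells and subsets, and of the higher 3′ to 5′ ratio of the aly arrays, in the lower Ccr7, Cxcr5 and Ccrl2 levels was not tested.

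The wider receptor family was read from a list. Of 15 other chemokine and atypical receptors, 10 were tested, and 2 fell in treated WT cells while none rose. Over all genes 4.75% fell and 4.95% rose. Xcr1, the XCL1 receptor of CD8α+ DCs, read 578.6, 417.7 and 1880.5 untreated and 16.1, 201.1 and 1.9 treated. All treated arrays were lower, and it fell by 3.98 ± 0.75 on the log2 scale (15.8-fold, limma adjusted p = 0.0028). Ccr9, a receptor for CCL25 found on plasmacytoid DCs, read 290.4, 110.9 and 384.8 untreated and 10.9, 70.3 and 13.8 treated. It fell by 2.61 ± 0.54 on the log2 scale (adjusted p = 0.006), and its 3 other probe sets gave -1.56, -0.95 and 0.52. Of 5 plasmacytoid DC markers, 2 were higher in treated WT cells and 1, Ccr9 itself, was lower. These markers summed to 709 to 1001 untreated and 1796 to 2670 treated, but the sum follows mainly Bst2. The Bst2 mean was 203.5 untreated and 1392 treated, that of Tcf4 330.8 and 768.0 and that of Ly6d 46.70 and 64.63. Siglech had a lower mean after treatment, 27.63 untreated and 10.77 treated. The part of these markers in the Ccr9 values was not tested. The median over the 10 was -0.02 in WT. No other receptor of this list was called in aly cells, between genotypes or in the interaction.

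Ligands of the 9 receptors were read in the same cells. Of 19 listed, 16 were tested, and 4 rose and 1 fell in treated WT cells (median 0.81). Over all genes 4.95% rose and 4.75% fell (median -0.12). The ligands not tested were Ccl19 and Ccl21a, ligands of CCR7, and Ccl20, the ligand of CCR6. The CXCR3 ligand Cxcl10 went from 170.3, 74.6 and 109 to 7330.9, 5531.5 and 7926.3, a rise of 5.74 ± 0.52 (53.5-fold, limma adjusted p = 4.8e-06). Cxcl11, also a CXCR3 ligand, went from 27.4, 3.3 and 33 to 1472.8, 1395.8 and 1155.4, a rise of 5.29 ± 0.39 (adjusted p = 7.6e-07), while its other probe set gave 1.04. Cxcl9, the remaining CXCR3 ligand, rose by 2.45 ± 0.47 (adjusted p = 0.0036). The ligands of CXCR3 thus rose in the WT cells in which Cxcr3 fell. Ccl5, a ligand of CCR1, rose by 3.24 ± 0.50 (adjusted p = 5.5e-04), and Ccl6 was the 1 that fell, a gene named after its value was seen.

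In aly cells 2 of the 16 ligands rose (median 0.48), where 0.453% of all genes rose. They were Cxcl10, by 3.21 ± 0.52 (limma adjusted p = 0.014), and Ccl5, by 2.92 ± 0.50 (limma adjusted p = 0.018). Either call was lost without untreated aly replicate 2 or 3 (adjusted p up to 0.099). Comparing treated cells, the 3 CXCR3 ligands were lower in aly and no ligand was higher (median 0.09), against 2.64% and 2.74% of all genes. The differences were -3.45 ± 0.39 for Cxcl11 (adjusted p = 4.6e-04), -2.62 ± 0.52 for Cxcl10 (adjusted p = 0.012) and -1.94 ± 0.47 for Cxcl9 (adjusted p = 0.027). The other Cxcl9 probe set gave -0.47 and the other Cxcl11 probe set -0.54. The Cxcl9 call was lost without any 1 treated WT array or treated aly replicate 2 (adjusted p up to 0.13), and the Cxcl10 call without treated WT replicate 3 (0.087).

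Cxcl11 was the only ligand called in the interaction, at -3.53 ± 0.55 (limma adjusted p = 0.017). The call was lost in 6 of the 12 fits that left out 1 array (adjusted p up to 0.075). Over all 22 alternatives that fitted an interaction it was called in 13 (adjusted p up to 0.4). The other Cxcl11 probe set gave -0.68, not called. No ligand was called between the untreated genotypes (median 0.53). Cxcl12, the CXCR4 ligand, and Rarres2, which encodes the CCRL2 ligand chemerin, were not called in any comparison, with WT differences of -0.79 ± 0.51 (adjusted p = 0.4) and 0.46 ± 0.46 (adjusted p = 0.63).

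**Figure D5:**
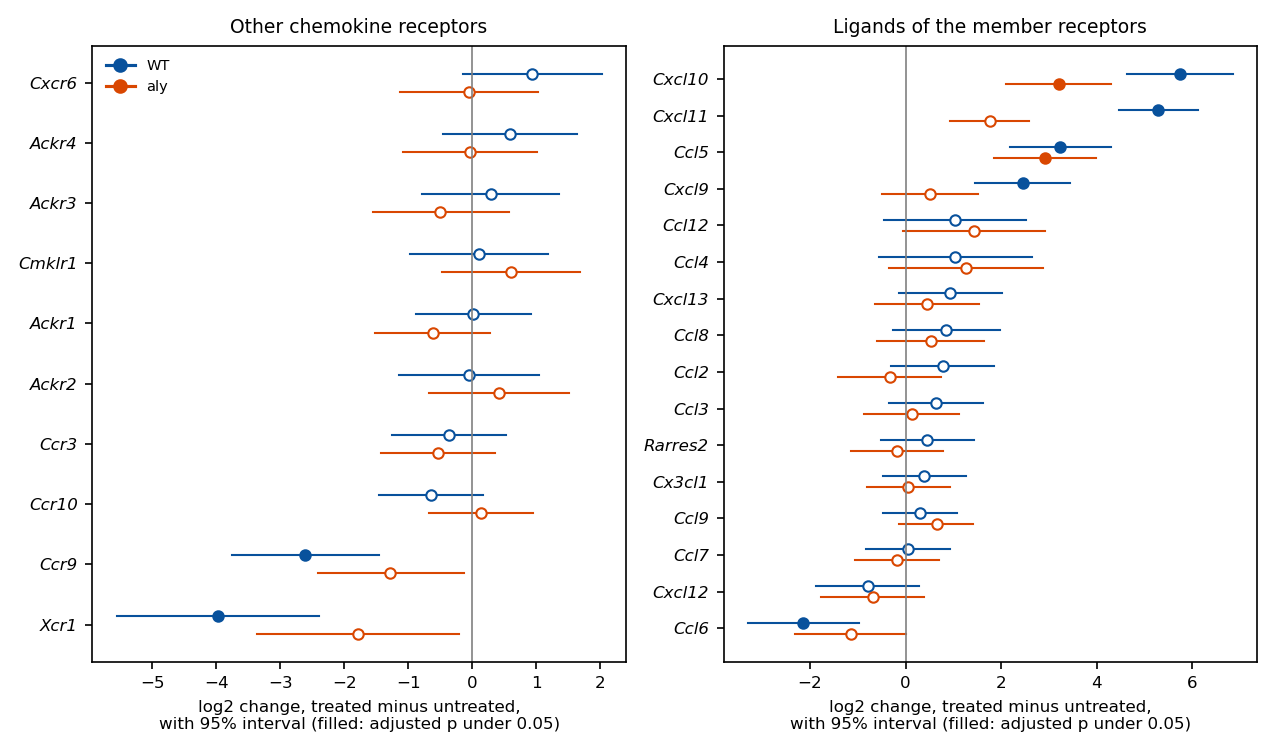
Treated minus untreated difference on the log2(intensity + 16) scale, with its 95% interval, of the 10 other receptors (left) and the 16 ligands (right) tested, in WT (blue) and aly (orange) cells, 3 arrays per group; filled points have an adjusted p below 0.05. Xcr1 and Ccr9 are the filled points at the low end on the left, and Cxcl10, Cxcl11, Ccl5 and Cxcl9 those at the high end on the right.

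Genes that carry or end the receptor signal showed changes in both directions. Of 20 listed, 18 were tested, and in treated WT cells 2 rose and 2 fell (median -0.18). The shares over all genes were 4.95% and 4.75%. Rgs1, which switches off Gαi signalling, read 1388.7, 1313.7 and 1546.7 untreated and 6031.2, 7170.1 and 8499.8 treated, a rise of 2.33 ± 0.39 (5.02-fold, limma adjusted p = 0.0013). Pik3r5, the regulatory subunit of the PI3Kγ enzyme, rose by 2.31 ± 0.41 (adjusted p = 0.002). Gng2, a G protein γ subunit, fell by 2.36 ± 0.53 (adjusted p = 0.01) and Rgs2, another regulator of G protein signalling, fell by 2.19 ± 0.58 (adjusted p = 0.026). Both falls were lost without single WT arrays, untreated replicates 1 and 3 and treated replicates 1 and 3 for either gene and untreated replicate 2 for Rgs2 (adjusted p up to 0.061 for Gng2 and 0.15 for Rgs2). The other probe sets of Gng2 gave -1.24, -0.18 and -1.61, and those of Rgs2 -2.18, -1.71 and -0.51.

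Treated aly cells had 3 of the 18 signalling genes lower than treated WT cells and none higher (median -0.69). Among all genes 2.64% were lower and 2.74% higher (median 0.19). Rgs1 was at 1115, 1150.9 and 1988.3 in treated aly, below all treated WT arrays, at -2.38 ± 0.39 (adjusted p = 0.0046). The Gαi subunit gene Gnai3 gave -3.27 ± 0.75 (adjusted p = 0.021) and its other probe set -0.93, and the receptor kinase gene Grk5 gave -1.57 ± 0.40 (adjusted p = 0.034) and its other probe set -0.52. Gnai3 was lowest on treated aly replicate 1, at 98 against 1076.2 and 1732.1 on the other treated aly arrays, and without that array its difference was -2.07. Gnai3 was lost without treated WT replicate 1 or 3 (adjusted p up to 0.13) and Grk5 in 7 of the 12 fits that left out 1 array (up to 0.17). None of the 18 was called for treatment in aly cells (median -0.76), between untreated genotypes (median -0.38) or in the interaction (median -0.62).

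The genes whose intensity followed Ccr7 most closely over the 12 arrays, by Pearson r of log2(intensity + 16), were Oasl1 (r = 0.98), Adgrg6 (0.98), Anxa2 (0.98), Gadd45b (0.97) and Cxcl10 (0.97). These arrays fall into 4 groups that Ccr7 itself separates, so the value describes a shared group pattern. Oasl1, an interferon-induced gene, was at 37.2 to 47 in untreated WT, 3588.1 to 5045.2 in treated WT, 15.8 to 94.7 in untreated aly and 275.8 to 1787.1 in treated aly. For Cx3cr1 the nearest genes were As3mt (r = 0.97), Klhl6 (0.95) and Ctbp2 (0.94), with higher group means in untreated than in treated cells of either genotype.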

How the data were processed

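Total RNA (RNeasy) of sorted splenic DCs was amplified in rounds of in vitro transcription and labelled with biotin, per the labels' protocols. The deposited table holds 1 linear intensity per probe set and array, which the authors scaled so that all arrays share a trimmed mean (software and background correction: not given in the sources used here). Probe sets were named through the platform annotation: 34958 had 1 symbol, 932 several and 9211 none. The deposited intensity was used as log2(intensity + 16), and 64 control probe sets were left out. Each gene was represented by its filtered probe set with the highest mean. The groups were fitted with limma 3.58.1 in R 4.3.3 (lmFit, eBayes) as 1 mean per group over 12 arrays, and p-values were adjusted by Benjamini-Hochberg. The fit was tested on simulated data. The 9 receptors are always named; of each related list, up to 4 called genes with the smallest p per comparison, Xcr1, Ccr9, Cxcl12 and Rarres2, and the nearest genes by correlation. Members and lists were chosen with earlier results of these data known. The number of arrays limits the precision. Offsets, scaling, filter, probe set choice, samples fitted, array weights, blocks and left-out arrays were varied.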

Additional observations from a re-analysis of the deposited data

How the results depend on the processing

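Over 23 alternatives the number of receptors called changed by more than 1.5 times in these cases. Each count is followed by the share of all genes called. In the interaction (0 called, 0.153%) it became 1 with an offset of 64 (0.366%) and 3 with array weights (2.40%). For treatment in aly cells (1 called, 0.486%) it became 2 after quantile normalization (0.699%) and 2 with array weights (1.09%). Between untreated genotypes (0 called, 0.553%) it became 1 with array weights (4.11%). Between treated genotypes (3 called, 5.37%) it became 1 when only the treated groups were fitted (0.180%) and 5 with array weights (19.2%). For treatment in WT cells (5 called, 9.71%) it became 3 over replicates 2 and 3 alone (7.54%). Leaving out 1 array in turn gave 3 to 7 receptors for WT treatment, with 3.91% to 18.9% of all genes called. The 7 came without treated aly replicate 1, with 18.9%. For the interaction it gave 0 to 1, with 0.00666% to 0.752%.

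Values that changed sign were all of receptors that were not called, and the cause was not tested. The Ccr1 difference became -0.02 for aly treatment with an offset of 1, -0.29 with array weights and -0.42 over replicates 2 and 3 alone. Between treated genotypes Ccr1 became -0.24 after median centring, -0.22 after quantile normalization, -0.37 with array weights and -0.33 over replicates 2 and 3 alone. Ccr6 between treated genotypes became 0.26 with array weights and 0.25 over replicates 2 and 3 alone, where its aly treatment difference became 0.05. Cxcr4 for WT treatment became 0.03 over replicates 2 and 3 alone. The Cx3cr1 interaction became -0.09 with an offset of 64, -0.06 after median centring and -0.02 over replicates 2 and 3 alone, and its untreated genotype difference 0.00 with array weights. When 1 array was left out, ranges that crossed 0 were -0.32 to 0.51 for the Cx3cr1 interaction, -0.37 to 0.29 for Ccr1 and -0.61 to 0.02 for Ccr6 under aly treatment, -0.43 to 0.09 for Cxcr5 and -0.14 to 0.69 for Cx3cr1 between untreated genotypes, and -0.37 to 0.32 for Ccr1 and -0.32 to 0.32 for Ccr6 between treated genotypes.

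Counts over all genes moved more. For WT treatment 1458 genes were called, against 898 with an offset of 1, 2895 when only the WT groups were fitted, 3370 with array weights, 587 without treated WT replicate 3 and 2843 without treated aly replicate 1. When every filtered probe set was tested, 2237 of 34205 probe sets were called, 6.54% against 9.71% of the genes. For aly treatment the 73 genes ranged from 6 when only the aly groups were fitted to 164 with array weights. The 83 genes between untreated genotypes ranged from 0 with an offset of 1 to 617 with array weights. The 807 genes between treated genotypes ranged from 27 when only the treated groups were fitted to 2886 with array weights, and were 81 without treated WT replicate 3. The 23 genes of the interaction ranged from 1 with an offset of 1 to 360 with array weights. Median centring moved the median of all genes from -0.12 to 0.08 for WT treatment and from 0.19 to -0.07 between treated genotypes, and the share of calls that were higher from 51.0% to 67.1% and from 50.9% to 23.5%; quantile normalization gave 61.9% and 43.0%.

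The replicate numbers were not used as pairs: the labels do not say that a number marks a shared day, and of 18 pairs of same-numbered arrays 8 had a correlation of deviations above 0.1 (range -0.03 to 0.3). The 4 replicate 1 arrays share lower spike-in signals across the groups, so the number may mark a batch. With the replicate number as a block, 6 receptors were called for WT treatment (Cx3cr1 in addition), 1 for aly treatment, 0 between untreated genotypes, 3 between treated genotypes and 0 in the interaction. The shares of all genes called were 11.1%, 0.606%, 0.886%, 7.38% and 0.200% in the same order. The Ccr7 rise in WT stayed at 4.74 under the block. With replicate 1 against replicates 2 and 3 as a block, Ccr6 and Cx3cr1 were called in addition for WT treatment, where 11.7% of all genes were.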

Other observations

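Treated WT replicate 2 had the highest intensity of its group for 7 of the 9 receptors. Outside the receptors it was also the highest for Xcr1, at 201.1 against 16.1 and 1.9, and for Itgae, at 204.6 against 12.8 and 30.8. These 2 genes were named after their values were seen. The share of all genes that were highest on that array was not counted, so 7 of 9 has no background beside it.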
